A study of Danio rerio with 3 samples.

Results

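Heat shock proteins and chaperonins are the genes whose products fold proteins, keep them from clumping and hand them on for degradation. They were chosen by gene symbol in the deposited table of zebrafish genes, by a rule that uses no values. Earlier results of these data were known when the choice was made. In all, 109 of 35117 genes matched (hspg2, which encodes a matrix proteoglycan, was left out). RNA came from whole, untreated wild-type zebrafish embryos raised at 28.5 degrees, from crosses of wild-type fish, at 6 hours post fertilization (hpf), when gastrulation begins, and at 10 hpf, when it ends. There was 1 library at 6 hpf and 2 libraries at 10 hpf, and the labels do not say how many embryos went into each or whether they came from separate clutches. Each gene has 1 RPKM value (reads scaled to gene length and to library size) per stage, the 10 hpf value covering both libraries. No spread between libraries can therefore be given for any RPKM value below. Whether the statistics deposited by the authors drew on the spread between the 2 libraries at 10 hpf is not given, and 6 hpf, with 1 library, has none.

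Of the 109 genes, 3 match by name only. These are tcp11l1, tcp11l2 and hsf2bp, whose names share letters with tcp1 and hsf2 and which belong to no chaperone family. The other genes were divided by role: 2 heat shock factors, 15 genes of the cytosolic HSP90, HSP70 and HSP110 families, 9 small heat shock protein genes, 8 genes of the CCT chaperonin, 5 of prefoldin, 3 major chaperones each of the endoplasmic reticulum (ER) and the mitochondria, 51 J-domain genes and 10 cochaperone genes. Compartments and roles are those known for the proteins, mostly from mammals and yeast. In bulk RNA from whole embryos, fewer cells of a type and less RNA per cell cannot be told apart.

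HSP70 proteins bind short stretches of unfolded protein in a cycle driven by ATP. J-domain proteins bring them their clients and start the cycle, and nucleotide exchange factors such as BAG and HSP110 proteins end it. HSP90 acts later, on nearly folded clients such as kinases and receptors. The CCT chaperonin is a double ring of related subunits that encloses newly made actin and tubulin, often delivered by prefoldin. Heat shock factors switch on many of these genes under stress. A fish embryo begins with maternal RNA, which is cleared as its own genes come on.

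Depth could be read from the spacing of the values, since a gene's RPKM moves in steps of 1 read. For a gene of 1 kilobase that step equalled 0.0589 RPKM in the 6 hpf values and 0.0430 RPKM in the 10 hpf values, and the latter rest on 1.37 times as many reads. For 87 of the 109 genes the values also gave the whole reads behind them, as the smallest read numbers that produce both values at a whole gene length. For these genes an exact 95% interval of the ratio was computed (Clopper-Pearson, counting error only, and conservative where a common factor of the read numbers was missed). Another 20 genes, all at 13.2 RPKM or more in the higher stage, were not resolved to 1 set of read numbers by the digits given, and hspb3 and dnajc22 were listed at 0 at both stages.

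Genes count as called here if the authors' deposited table gives them an empirical false discovery rate below 0.05, and the sign of its log2 fold sets the direction. By this criterion 7 of the 109 genes (6.42%) were called higher at 10 hpf and 19 (17.4%) lower, against 9.7% and 19.8% of all genes in the authors' deposited table. Among genes that reached 1 RPKM at either stage, 7 of 90 (7.78%) were called higher and 17 (18.9%) lower, against backgrounds of 16.3% and 32.9%. The shares are near or under the background. Folds in the authors' deposited table sit lower than log2 ratios of the RPKM pairs, by a median of 0.60 or a factor of 1.52, so a gene can be called lower on a small drop in RPKM. Conversely, of the genes that reached 1 RPKM, 17 that were at least 2-fold higher in RPKM were not called. Of the 19 lower calls, 6 stood on a drop of less than 1.5-fold in RPKM. Centring used a second, conservative log2 fold that the authors deposited (GFOLD). The median gene at 5 RPKM or more, at −0.50 on the plain log2 fold, was subtracted from it. Lower calls whose conservative fold stayed negative were kept. By this rule 8 lower calls remained (7.34% of the genes, against 13.4% of all genes). They were those of hspa4l, dnajb13, dnajb1b, dnajc17, dnajc5aa, hsf1, hsf2 and hsc70. On the plain log2 fold all 19 lower calls lie below −0.50, the nearest being hsp90b1 at −0.92. The losses on centring therefore rest on the conservative fold. Over the 109 genes the false discovery rate never rose as the size of that fold grew. For lower calls, centring is thus a stricter cut on a measure that already ordered the calls. All 7 higher calls remained, but this was fixed in advance, because taking away a negative median can only raise a value. Genes that were not called were not examined again, so centring could only remove lower calls.

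On the RPKM scale itself, 67 of the 90 genes at 1 RPKM or more in the higher stage (74.4%) had a higher value at 10 hpf, against 55% of all genes at that level. Differences of at least 2-fold were fewer. Of the 90 genes, 24 (26.7%) were at least 2-fold higher and 7 (7.78%) at least 2-fold lower, against 29.7% and 23.6% of all genes. In the authors' deposited table, where folds sit lower, 31 of the 90 genes have a fold of the opposite sign. On that scale 36 of the 90 genes have a positive fold, a share close to that of all genes at that level (6881 of 17494). The excess of higher values over all genes is therefore seen on the RPKM scale only. The scale factor is a median, and cct4 (RPKM ratio 1.55) and cct7 (1.56) exceed it yet have negative folds there. The median log2 ratio of RPKM values over the 90 genes (with 1 RPKM added to each) was 0.38, against 0.14 for all genes at 1 RPKM or more. That is 0.24 above the median gene. On the fold in the authors' deposited table the corresponding distance was 0.28. Medians of groups below are given as such distances from the median gene, on the RPKM scale unless stated, which the scale factor does not move. They can still differ between the 2 measures, at 0.72 on RPKM and 0.87 on the authors' fold for the mitochondrial genes.

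**Figure D1:**
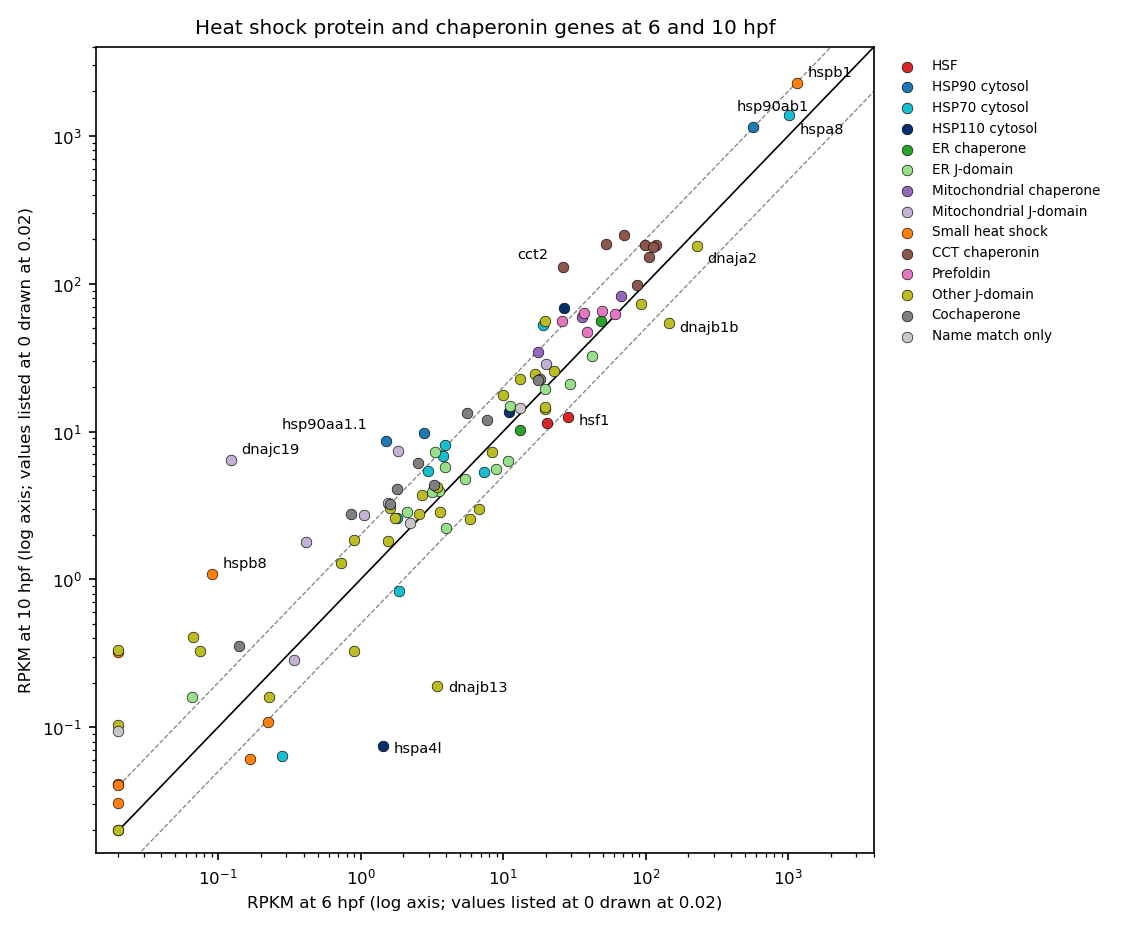
Each point is 1 of the 109 genes, with its RPKM at 6 hpf on the horizontal and at 10 hpf on the vertical log axis, coloured by group. The solid line marks equal values and the dashed lines 2-fold differences. Most abundant genes lie on or above the line of equality, dnajb1b and dnaja2 lie below it, and hspa4l and dnajb13 lie far below it.

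The summed level of the 109 genes was 4829 RPKM at 6 hpf and 7696 RPKM at 10 hpf, which is 1.05% and 1.66% of the RPKM sum over all genes. Most of it came from 3 genes, hspb1, hspa8 and hsp90ab1, which held 56.8% of the chaperone sum at 6 hpf and 62.5% at 10 hpf. Without them the sum of the other genes was 2088 and 2884 RPKM, a ratio of 1.38. The sums of the cytosolic HSP90 genes, of CCT and of the small heat shock genes were 2.03, 1.97 and 1.96 times as high at 10 hpf as at 6 hpf. The summed J-domain genes had 809 and 703 RPKM, and their share of the chaperone sum went from 16.8% to 9.14%. That lower sum rested on dnajb1b and dnaja2, without which it was 433 and 468 RPKM, a ratio of 1.08. Of the 42 J-domain genes at 1 RPKM or more, 25 had higher RPKM at 10 hpf, against 55% of all genes at that level. On the authors' fold, 12 of the 42 were positive, against 6881 of 17494 among all genes at that level. Most genes at that level are thus negative on the authors' fold, whether J-domain genes or not. A sum ratio under 1.52 would lie below 1 after division by the median scale factor of the authors' fold. This concerns the genes other than hspb1, hspa8 and hsp90ab1 (1.38) and the J-domain genes without dnajb1b and dnaja2 (1.08). Among the groups it concerns the cytosolic HSP70 genes (1.40), prefoldin (1.39), the mitochondrial chaperones (1.47) and the ER chaperones (1.08).

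**Figure D2:**
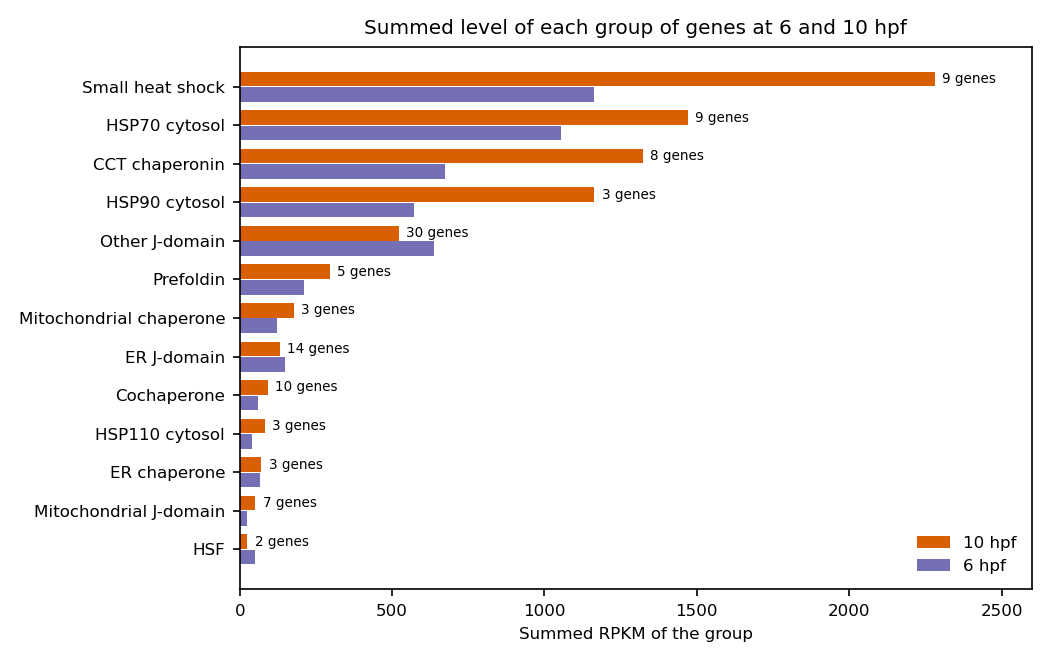
Bars show the RPKM values of each group summed over its genes (horizontal axis, linear, starting at 0), at 6 hpf and 10 hpf, with the number of genes beside the bars. There are no error bars because each gene has 1 value per stage. The small heat shock bar is almost all hspb1, and the bar of the other J-domain genes is shorter at 10 hpf, at 522 RPKM against 636 RPKM.

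Both heat shock factors fell. The gene hsf1 (ENSDARG00000008818), which encodes the main activator of the heat shock response, went from 28.7 to 12.6 RPKM, a 2.28-fold drop to which the authors' deposited table gives a false discovery rate of 0.00118. The related factor gene hsf2 (ENSDARG00000053097), linked in mammals to development, went from 20.5 to 11.4 RPKM, or from 780 to 595 reads. That is a 1.79-fold drop (95% interval 1.61 to 1.999). Both calls were kept after centring, and the levels of the 2 factor genes lay closer together at 10 hpf (a ratio of 1.101) than at 6 hpf (1.40).

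Among the cytosolic HSP90 genes the rare members rose and the abundant member was not called. The constitutive gene hsp90ab1 stood at 568 and 1145 RPKM, placing it 100th and 51st among all genes, and was not called although its RPKM ratio was 2.02. The gene hsp90aa1.1 (ENSDARG00000010478), known in zebrafish for its role in muscle fibre assembly, rose from 1.51 to 8.61 RPKM, a ratio of 5.70 (95% interval 3.71 to 9.11, from 24 and 187 reads or multiples of these). Its neighbour hsp90aa1.2 (ENSDARG00000024746) rose from 2.80 to 9.71 RPKM, a ratio of 3.47 (3.005 to 4.02). For this pair the authors' deposited table gives false discovery rates of 0.000599 and 0.00657. At 10 hpf hsp90ab1 was still at 133 times the level of hsp90aa1.1, against 375 times at 6 hpf. The hsp90aa1 genes are close copies that lie next to each other, so reads may be divided between them.

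The cytosolic HSP70 genes were led by hspa8, the constitutive member, at 1012 and 1388 RPKM, ranked 57th and 37th among all genes and not called. The stress-inducible genes were low. Values were 2.95 and 5.42 RPKM for hsp70.1, 3.81 and 6.84 RPKM for hsp70.2, 3.92 and 8.12 RPKM for hsp70.3 and 1.82 and 2.62 RPKM for hsp70l. None of these 4 genes was called, and their ratios lay between 1.44 (95% interval 1.08 to 1.95, hsp70l) and 2.07 (1.72 to 2.50, hsp70.3). The summed level of all 4 was 12.5 RPKM at 6 hpf and 23.0 RPKM at 10 hpf, which is 0.259% and 0.299% of the chaperone sum. The genes hsp70.1, hsp70.2 and hsp70.3 stand in a row in the RefSeq annotation and are near-identical, so their separate values are uncertain.

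Of the 9 cytosolic HSP70 genes, 0 were called higher and 3 lower, against 9.7% and 19.8% of all genes. Among all genes at 1 RPKM or more, a level that hspa12b did not reach, 32.9% were called lower. A gene annotated as hsc70 (ENSDARG00000012381) fell from 1.86 to 0.836 RPKM, a 2.22-fold drop with a wide interval (1.15 to 4.44, from 26 and 16 reads or multiples of these). The distant family member hspa12a went from 7.37 to 5.33 RPKM, a 1.38-fold drop whose call was lost on centring. Its relative hspa12b, known in zebrafish for a role in blood vessels, was called lower at 0.280 and 0.0639 RPKM, and rested on 16 and 5 reads. By contrast hspa14, whose product is found on ribosomes in mammals, had 19.0 and 53.0 RPKM, a ratio of 2.78. It was not called, at 0.0858 in the authors' deposited table. The median of the 8 cytosolic HSP70 genes at 1 RPKM or more lay 0.43 above the median gene.

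HSP110 genes, relatives of HSP70 whose products release ADP from it, differed among themselves. The gene hspa4l (ENSDARG00000053544) fell from 1.44 to 0.0743 RPKM, from 85 reads to 6, which is a 19.4-fold drop (95% interval 8.54 to 54.3). Over the same hours hspa4b had 26.9 and 68.1 RPKM, a ratio of 2.53, and hspa4a had 11.0 and 13.6 RPKM, a ratio of 1.23. Neither was called, and the fold of hspa4a in the authors' deposited table is negative (−0.29).

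**Figure D3:**
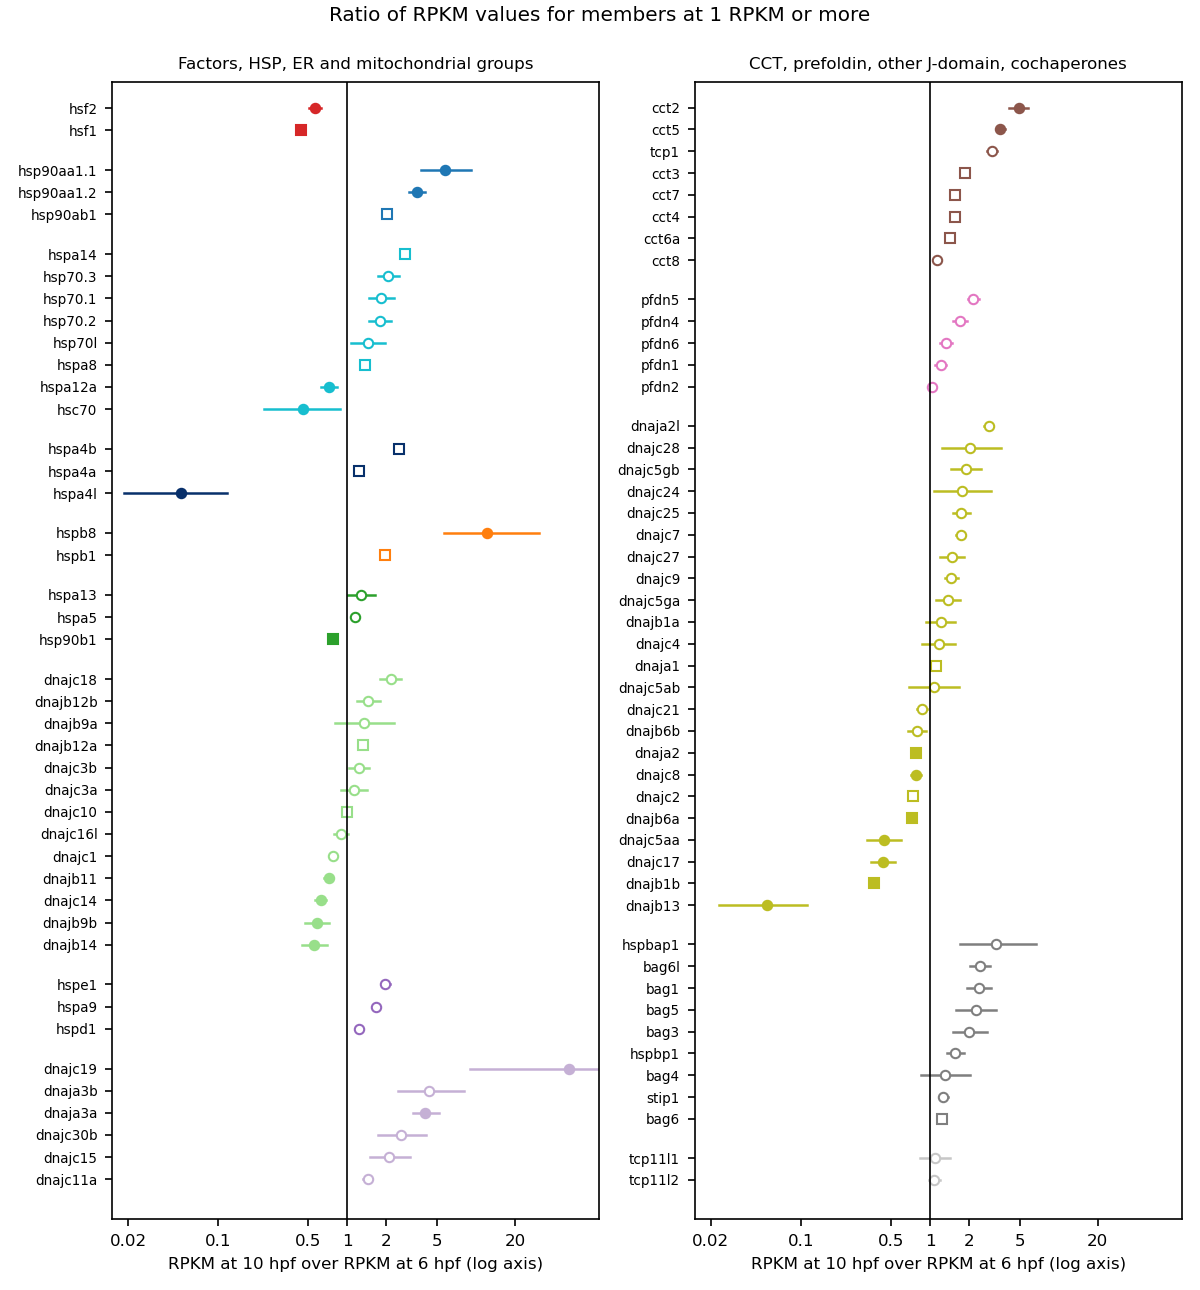
Points give the RPKM at 10 hpf divided by that at 6 hpf (log axis) for the 90 genes at 1 RPKM or more in the higher stage, grouped by role. Lines are 95% Clopper-Pearson intervals from the recovered reads, squares are genes whose reads could not be resolved, filled symbols were called in the authors' deposited table, and the interval of dnajc19 runs past the axis. The widest intervals belong to the genes with the fewest reads, and 10 of the 70 intervals include 1.

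The small heat shock proteins are ATP-independent holders of unfolded proteins, related to lens alpha-crystallin. Of their 9 genes, 1 made up nearly the whole family. The gene hspb1 (ENSDARG00000041065) stood at 1161 and 2278.5 RPKM, 51st and then 12th among all genes, the highest level of the 109 at both stages. It was not called, with a fold of 0.25 in the authors' deposited table. The other 8 genes together summed to 0.480 RPKM at 6 hpf and 1.69 RPKM at 10 hpf.

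Among those 8, hspb8 (ENSDARG00000058365), a partner of the cochaperone BAG3, was called higher. It went from 0.0906 to 1.09 RPKM, from 7 reads to 115, a ratio of 12.01 (95% interval 5.65 to 30.5). The remaining 7 stayed under 0.4 RPKM at both stages, and hspb3 was listed at 0 throughout. By the smallest read numbers that fit, or multiples of these, hspb2 went from 3 reads to 2 and hspb6 from 2 reads to 1. On the same terms hspb7, hspb11 and hspb15 went from 0 reads to 1 and hspb9 from 0 to 3. On these smallest read numbers, a difference between the stages was not detectable for these 7 genes.

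All 8 CCT genes had higher RPKM at 10 hpf, against 55% of all genes at 1 RPKM or more. Of the 8, 2 were called higher and 0 lower, against 16.3% and 32.9% of all genes at that level. The gene cct2 (ENSDARG00000087206), encoding the beta subunit, rose from 26.5 to 129 RPKM, a ratio of 4.88 (95% interval 4.13 to 5.81), with a false discovery rate of 0.00118 per the authors' deposited table. The gene cct5 (ENSDARG00000045399), encoding the epsilon subunit, rose from 52.6 to 185 RPKM, a ratio of 3.52 (3.27 to 3.79), at 0.00761 in the authors' deposited table. The alpha subunit gene tcp1 had 70.0 and 213 RPKM, a ratio of 3.04 (2.77 to 3.33), and was not called, at 0.0785 in the authors' deposited table.

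The other 5 subunit genes differed less between stages and were not called. Their ratios were 1.86 for cct3 (98.5 and 184 RPKM), 1.56 for cct7 (113 and 177 RPKM), 1.55 for cct4 (118 and 183 RPKM), 1.43 for cct6a (106 and 153 RPKM) and 1.13 for cct8 (86.9 and 98.6 RPKM). Of the 8 genes, cct4, cct6a, cct7 and cct8 have negative folds in the authors' deposited table, so the direction of these 4 differs between the scales. Relative to the median gene the group lay 0.62 higher on the RPKM scale and 0.55 higher on the authors' scale.

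Since each ring of the complex holds every subunit once, the levels of the 8 messages can be compared per length. They spanned 4.44-fold at 6 hpf, from cct2 to cct4, and 2.16-fold at 10 hpf, from cct8 to tcp1. The coefficient of variation over the 8 genes was 38.2% and then 22.1%. Most of this narrowing rested on cct2, which stood at 0.315 times the mean of the group at 6 hpf and 0.782 times at 10 hpf. Without cct2 the span was 2.23-fold and 2.16-fold, and the coefficient of variation 25.9% and 21.2%. The order also changed. The lowest 3 genes at 6 hpf, cct2, cct5 and tcp1, included the highest 2 at 10 hpf, while cct8 went from rank 5 to rank 8.

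**Figure D4:**
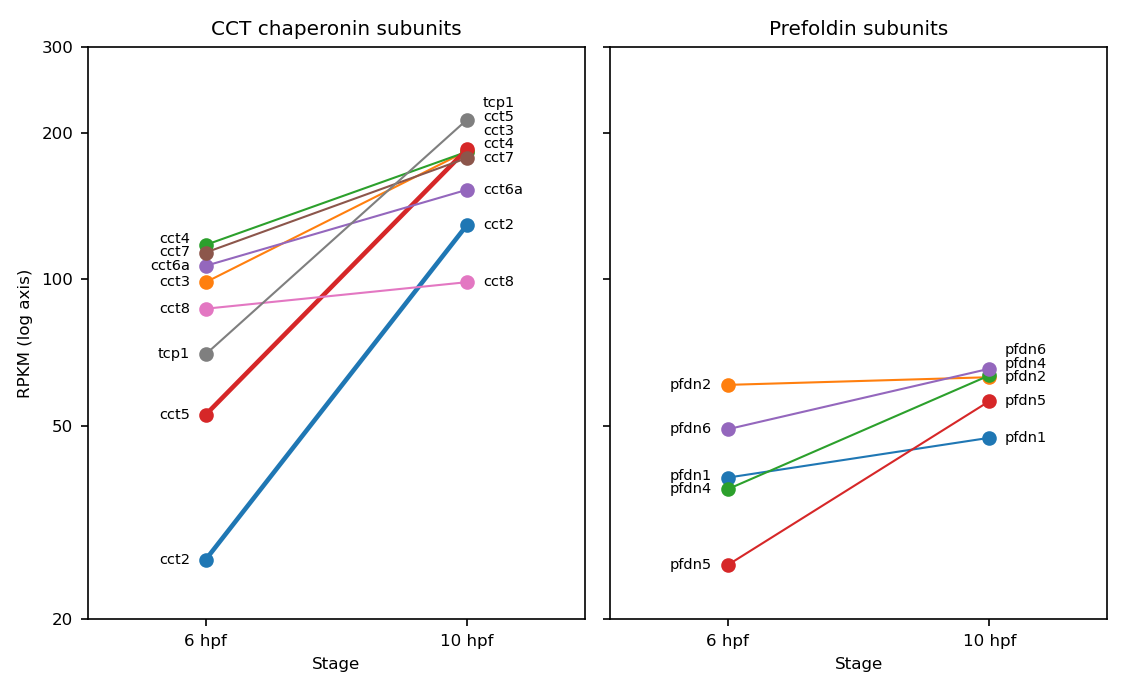
Lines join the RPKM of each subunit gene at 6 hpf and 10 hpf (log axis), with CCT on the left and prefoldin on the right. Thick lines mark genes called in the authors' deposited table, and names are spread apart where points lie close. The steepest lines belong to the genes that were low at 6 hpf, cct2, cct5 and tcp1 in CCT and pfdn5 in prefoldin.

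Prefoldin, the cytosolic complex that carries actin and tubulin chains to CCT, had 0 of 5 genes called in either direction. Among all genes at 1 RPKM or more, 16.3% were called higher and 32.9% lower. Values were 60.6 and 62.8 RPKM for pfdn2, 49.1 and 65.4 RPKM for pfdn6, 39.1 and 47.2 RPKM for pfdn1, 37.0 and 63.4 RPKM for pfdn4 and 25.8 and 56.1 RPKM for pfdn5. The largest ratio was that of pfdn5, at 2.17 (95% interval 1.98 to 2.38), and the interval of pfdn2 (0.978 to 1.1002) included 1. The fold in the authors' deposited table is negative for pfdn1, pfdn2 and pfdn6. The span of the 5 levels was 2.35-fold at 6 hpf and 1.39-fold at 10 hpf. With the remaining subunit gene vbp1, which the symbol rule does not take and which had 17.7 and 29.6 RPKM, it was 3.42-fold and 2.21-fold.

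In the ER none of the 17 genes (0) was called higher and 5 were called lower, and none of these 5 calls was kept after centring. The 5 lower calls are 31.2% of the 16 genes at 1 RPKM or more, near the background of 32.9%. For higher calls the background at that level was 16.3%. The HSP70 of the ER, encoded by hspa5 (BiP), had 49.0 and 56.1 RPKM, a ratio of 1.14 (95% interval 1.09 to 1.204), and was not called. Its HSP90 counterpart hsp90b1 (ENSDARG00000003570, also known as grp94) was called lower at 13.2 and 10.3 RPKM. The HSP70-like gene hspa13 had 3.26 and 4.20 RPKM. The summed level of these 17 genes was 213 RPKM at 6 hpf and 201 RPKM at 10 hpf, a ratio of 0.945, and their median lay 0.09 below the median gene.

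The other lower calls in the ER were J-domain genes. The BiP partner genes dnajb11 and dnajb9b went from 29.3 to 21.0 RPKM and from 10.8 to 6.29 RPKM. The ER membrane genes dnajb14 and dnajc14 went from 3.99 to 2.21 RPKM and from 8.96 to 5.56 RPKM, drops of 1.80-fold (95% interval 1.44 to 2.25) and 1.61-fold (1.452 to 1.79). The most abundant ER J-domain gene, dnajc1, had 42.1 and 32.6 RPKM and was not called, at 0.0596 in the authors' deposited table. At the other end, dnajc18 had 3.34 and 7.26 RPKM, a ratio of 2.17 (1.81 to 2.63). Among the 13 ER J-domain genes at 1 RPKM or more it alone has a positive fold in the authors' deposited table. The redox J-domain gene dnajc10 had 19.6 and 19.5 RPKM.

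Of the mitochondrial genes, all 9 of the 10 that reached 1 RPKM had a higher RPKM at 10 hpf, 7 of them also on the authors' scale, 2 were called higher and 0 lower. The 2 higher calls are 22.2% of these 9 genes, against 16.3% of all genes at that level. Of all genes at that level, 32.9% were called lower and 55% had higher RPKM at 10 hpf. The difference between ER and mitochondrial genes was not tested. The median of the 9 mitochondrial genes lay 0.72 above the median gene. The gene dnajc19 (ENSDARG00000044420), encoding a J-domain subunit of the motor that pulls proteins into the matrix, rose from 0.123 to 6.40 RPKM. This was 1 read against 71, or multiples of these. On 1 and 71 reads the ratio of 51.9 has a 95% interval of 9.02 to 2079. The gene dnaja3a (ENSDARG00000058494), a J-domain partner of mitochondrial HSP70, rose from 1.83 to 7.37 RPKM, a ratio of 4.04 (3.22 to 5.11). Its paralog dnaja3b had 0.413 and 1.79 RPKM, a ratio of 4.34 (2.49 to 8.07) from 15 and 89 reads, and was not called.

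The abundant mitochondrial chaperones were not called. Mitochondrial HSP70, encoded by hspa9, had 35.8 and 60.0 RPKM, a ratio of 1.68 (95% interval 1.60 to 1.75). HSP60, encoded by hspd1, had 67.4 and 82.6 RPKM, a ratio of 1.23 (1.17 to 1.28), with a negative fold in the authors' deposited table. The lid of HSP60, encoded by hspe1, had 17.5 and 34.6 RPKM, a ratio of 1.98 (1.82 to 2.15). The genes hspd1 and hspe1 are neighbours in the RefSeq annotation, and the intervals of their ratios did not overlap. The level of hspd1 was 3.85 times that of hspe1 at 6 hpf and 2.39 times at 10 hpf. Values were 1.55 and 3.26 RPKM for dnajc15, a relative of the import motor subunit, 1.05 and 2.74 RPKM for dnajc30b and 19.96 and 28.8 RPKM for dnajc11a, and none of these was called.

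The other 30 J-domain genes are cytosolic, nuclear or not placed in a compartment. Of these, 0 were called higher and 8 (26.7%) lower, against 9.7% and 19.8% of all genes. Of the 23 at 1 RPKM or more, 7 (30.4%) were called lower, near the background of 32.9%. They include abundant partners of cytosolic HSP70. The gene dnajb1b (ENSDARG00000041394), an HSP40 of the stress-responsive class, fell from 146 to 54.1 RPKM, a 2.70-fold drop, at 0.000599 in the authors' deposited table. The most abundant J-domain gene, dnaja2 (ENSDARG00000104066), was called lower at 230 and 181 RPKM, a 1.27-fold difference that was not kept after centring. The splicing-associated gene dnajc8 was called at 93.3 and 73.2 RPKM and dnajb6a at 19.7 and 14.2 RPKM, and these calls were not kept either.

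Larger drops occurred among rarer J-domain genes. The gene dnajb13 (ENSDARG00000043157), whose product is an axonemal protein of sperm and cilia, fell from 3.47 to 0.189 RPKM, from 107 reads to 8, which is 18.3-fold (95% interval 8.96 to 43.5). The nuclear gene dnajc17 fell from 5.89 to 2.55 RPKM, 2.30-fold (1.87 to 2.84). The cysteine string protein gene dnajc5aa, known for its place on synaptic vesicles, fell from 6.82 to 2.998 RPKM, 2.27-fold (1.68 to 3.10). For dnajb5 the call rested on 18 and 9 reads or multiples of these, at 0.895 and 0.327 RPKM.

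Several J-domain genes at 20 RPKM or more were not called. The farnesylated HSP40 gene dnaja1 had 22.8 and 25.6 RPKM. The histone chaperone gene dnajc9 had 16.8 and 24.7 RPKM, and dnajc7, whose product binds both HSP70 and HSP90, had 13.1 and 22.7 RPKM, ratios of 1.47 (95% interval 1.298 to 1.66) and 1.73 (1.60 to 1.87). The gene dnaja2l had 19.6 and 55.7 RPKM, a ratio of 2.85 (2.64 to 3.07), and was not called, at 0.0877 in the authors' deposited table. Among the genes not named, those at 1 RPKM or more stood below 20 RPKM at both stages. Of the 30 genes, 7 stayed below 1 RPKM, and among these dnajb4 went from 0 reads to 15. The lower end of the 95% interval of its ratio was 2.62, and it was not called.

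Related genes often differed from each other. The gene dnajb1b stood at 42.2 times the level of dnajb1a at 6 hpf and 12.9 times at 10 hpf, since dnajb1a had 3.46 and 4.19 RPKM. For dnaja2 over dnaja2l the factor was 11.8 and then 3.24. For hspa4b over hspa4a it went the other way, from 2.44 to 5.02. The gene dnajb9b fell while dnajb9a had 2.12 and 2.86 RPKM, and dnajc5aa fell while dnajc5ab had 2.57 and 2.77 RPKM (ratio 1.08, 95% interval 0.692 to 1.69). In these 2 pairs the intervals of the ratios did not overlap between the partners. Other pairs moved alike, such as dnaja3a and dnaja3b above and dnajc3a and dnajc3b, with 3.54 and 3.96 RPKM and 3.19 and 3.91 RPKM. Of 17 pairs compared, 0 had calls in opposite directions. Few pairs could have had them, since only 7 of the 109 genes were called higher.

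**Figure D5:**
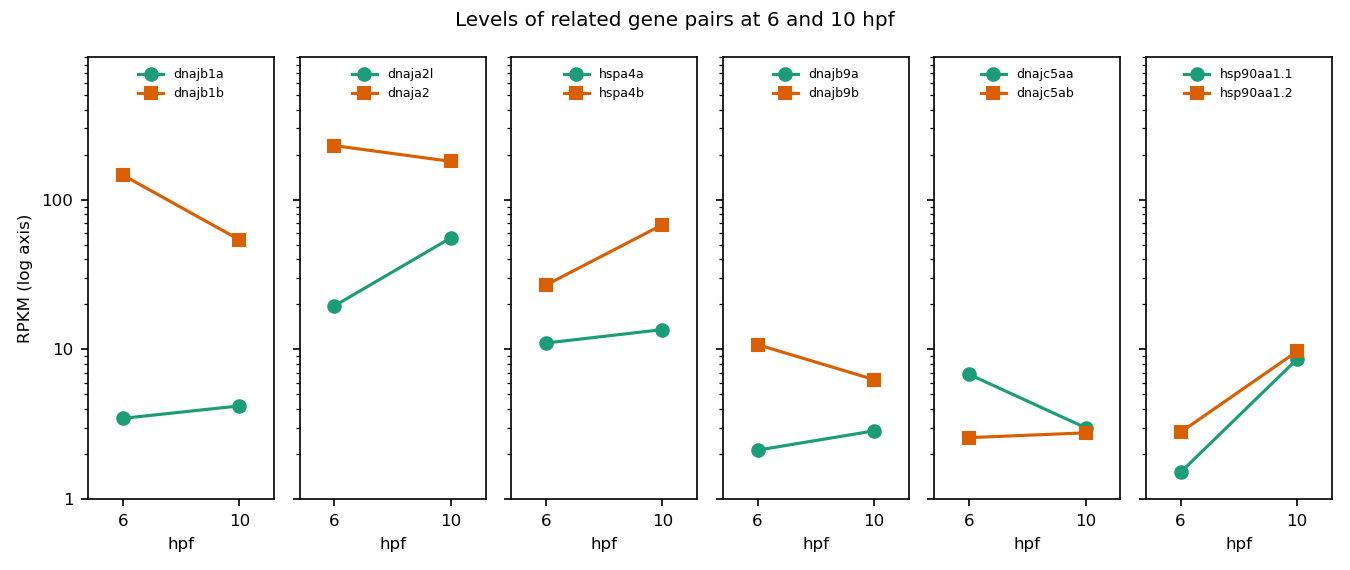
Panels show 6 pairs of related genes, with RPKM (log axis) at 6 and 10 hpf and 1 line per gene. The distance between the lines shrinks in the pairs dnajb1a and dnajb1b, dnaja2l and dnaja2, dnajb9a and dnajb9b, dnajc5aa and dnajc5ab, and hsp90aa1.1 and hsp90aa1.2, and grows in the pair hspa4a and hspa4b.

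Of the 10 genes grouped as cochaperones, 0 were called in either direction. All 9 genes at 1 RPKM or more had higher RPKM at 10 hpf, 6 of them also on the authors' scale. Among all genes at that level, 55% had higher RPKM, 16.3% were called higher and 32.9% lower. The nucleotide exchange factor gene bag1 had 5.58 and 13.3 RPKM, a ratio of 2.39 (95% interval 1.95 to 2.95). The genes bag3, bag4 and bag5 had 1.60 and 3.25 RPKM, 3.29 and 4.33 RPKM, and 1.81 and 4.09 RPKM. For bag2 there were 2 and 7 reads, or multiples of these. The gene bag6, whose product guards tail-anchored membrane proteins, had 18.0 and 22.5 RPKM, and its relative bag6l had 2.51 and 6.14 RPKM, a ratio of 2.44 (2.05 to 2.92). STIP1, the adaptor that links HSP70 to HSP90, was encoded by messages at 17.6 and 22.4 RPKM, a ratio of 1.27 (1.17 to 1.38). For hspbp1, a further exchange factor, the values were 7.68 and 12.1 RPKM, and for hspbap1 they were 0.861 and 2.78 RPKM. The genes matched by name only had 2.22 and 2.41 RPKM (tcp11l1) and 13.2 and 14.4 RPKM (tcp11l2), and hsf2bp had 0 and 5 reads.

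The folding machinery also has partner genes that the symbol rule does not take. Of 66 such genes measured, 4 (6.06%) were called higher and 5 (7.58%) lower, against 9.7% and 19.8% of all genes. Of the 64 at 1 RPKM or more, 4 (6.25%) were called higher and 4 (6.25%) lower, against 16.3% and 32.9% of all genes at that level. The median of these 64 genes lay 0.45 above the median gene. Among 23 cytosolic cofactors of HSP90 and HSP70, 1 was called higher and 2 lower. The HSP90 cofactor gene chordc1b rose from 8.21 to 30.9 RPKM, and unc45a, a relative of the muscle myosin chaperone, was called lower at 6.59 and 3.89 RPKM, as was sgtb at 0.899 and 0.205 RPKM. After centring the call of sgtb was kept and that of unc45a was not. Of 14 mitochondrial folding and protease genes 0 were called higher and 1 lower, which was yme1l1b at 19.4 and 11.5 RPKM, a call not kept after centring.

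In the ER list, 3 of 29 genes were called higher and 2 lower, against 9.7% and 19.8% of all genes. Of the 29 genes, 28 reached 1 RPKM, and among all genes at that level 16.3% were called higher and 32.9% lower. The collagen chaperone gene serpinh1b (HSP47) rose from 16.8 to 124 RPKM and its paralog serpinh1a from 0.754 to 4.99 RPKM. The disulfide isomerase gene p4hb fell from 109.6 to 49.0 RPKM, while pdia5 rose from 0.858 to 4.38 RPKM. The translocation gene sec63 was called lower at 31.0 and 25.1 RPKM, and after centring the call of p4hb was kept and that of sec63 was not. Regulators of the unfolded protein response were not called: xbp1 had 156 and 145 RPKM, atf6 14.3 and 19.4 RPKM, atf4a 81.3 and 184 RPKM and ddit3 6.57 and 9.61 RPKM.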

How the data were processed

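Per the labels' protocols, whole embryos were freed of the chorion by hand, RNA was taken with Trizol, and libraries followed Illumina's usual methods. Reads were processed with TopHat2 2.1.1 and build GRCz10, per the submitters' processing notes. Counter, annotation and strand setting: not given in the sources used here. RPKM values were deposited by the authors, 1 per stage, per the file headers. The authors also deposited a log2 fold, a conservative log2 fold by GFOLD (setting 0.01) and a false discovery rate, which is a q-value. Calls used the false discovery rate and not the conservative fold itself, although that rate never rose among these genes as the size of the fold grew. The conservative fold also decided which lower calls were kept after centring. The scaling of the fold is not given.

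No test between stages was made here, since each stage has 1 value. Read totals were fitted to the RPKM steps, and reads per gene taken as the smallest whole numbers that give both values at a length of 100 to 8000 bases, where all fitting lengths are multiples of the smallest. Tested on simulated data for this comparison (2000 genes), 1471 were resolved, 79.6% of these exactly, 20.4% as a common divisor and 0% wrongly. The 0% was fixed in advance, because every simulated length lay within the range searched and only divisors of all fitting lengths were accepted. Genes outside 100 to 8000 bases were not simulated, so the error for such genes is not known. How the 2 libraries at 10 hpf were combined is not given, so intervals cover counting error only, and reads are not independent molecules.

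Genes, groups, lists and calls were chosen with earlier results of these data known. All members of the named families at 1 RPKM or more were named, and J-domain genes where called or at 20 RPKM. Others, and the pairs of related genes, were chosen after their values were seen. Neighbouring genes were read by symbol from the RefSeq table of assembly GRCz12tu, in which all 109 genes matched, and which gave no coordinates here. Python 3.11.15 with pandas 2.3.3 and scipy 1.17.1 was used.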

Additional observations from a re-analysis of the deposited data

How the results depend on the processing

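No paired analysis was possible because each stage has 1 value, and for the same reason no library could be left out. The 7 higher and 19 lower calls became 24 and 7 when a 2-fold difference in RPKM among genes at 1 RPKM or more replaced the authors' false discovery rate (7 and 17 calls at that minimum), and lower calls became 8 after centring (partner genes, from 5 to 2). A false discovery rate under 0.01 gave 7 and 14, and a minimum of 5 RPKM gave 6 and 13. Medians of the log2 RPKM ratio moved for every group on the authors' fold, which sits lower by its scale factor. That factor is not the only difference, since the medians of mitochondrial J-domain and small heat shock genes were higher on the authors' fold. There all members had −0.14 (0.38 on RPKM), HSP110 −0.29 (0.28), ER chaperones −0.38 (0.19), prefoldin −0.19 (0.41) and the other J-domain genes −0.39 (0.14), all turned negative, while heat shock factors had −1.59 (−0.96), HSP90 1.21 (1.495), HSP70 0.12 (0.58), ER J-domain −0.58 (−0.01), mitochondrial chaperones 0.10 (0.73), mitochondrial J-domain 1.07 (0.92), small heat shock 1.48 (0.95), CCT 0.13 (0.77) and cochaperones 0.47 (0.71). With members at 5 RPKM or more, ER chaperones turned to −0.069 and other J-domain genes to −0.35, and HSP70 had 0.70, HSP110 0.79, ER J-domain −0.14, mitochondrial J-domain 1.57 and cochaperones 0.59. A pseudocount of 5 gave 0.26 for all members, −0.79 for heat shock factors, 1.006 for HSP90, 0.41 for HSP70, 0.40 for mitochondrial J-domain, 0.61 for small heat shock and 0.41 for cochaperones. A pseudocount of 0.1 gave 1.76 for HSP90, 1.59 for mitochondrial J-domain, 1.81 for small heat shock and 0.97 for cochaperones, and without a minimum level HSP70 had 0.46, ER J-domain 0.056 and small heat shock 0.058. Beyond the changes of scale and of members these settings consist of, the cause was not tested.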
